A study of Mus musculus with 8 samples.

Results

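Cytochrome P450 genes were followed in the lungs of OVA-sensitized/challenged mice. Members were the genes whose symbol has the form Cyp, a family number, a subfamily letter and a gene number, with the symbol taken from the RefSeq accession of the array probe. Of 22911 named genes with a probe, 92 had such a symbol, and 48 of these gave a signal well above background in both mice of at least 1 group. These 48 were the members, among 16565 named genes that passed the same filter, and 38 of the 48 were well above background on all 8 arrays. The brightest probe stands for a gene.

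The series measured lung RNA of 8 female BALB/c mice on Day 70, 2 in each of 4 groups, with 1 single-color array per mouse. The animals were bought at 4 weeks of age and kept for 2 weeks before feeding began. NT mice ate standard feed and received no OVA. Ctrl-F, Cap-F and ODNcap-F mice were all sensitized by intraperitoneal OVA with aluminum oxide gel and then challenged by OVA inhalation. Ctrl-F ate standard feed for the 70 days, Cap-F ate feed with control particles of carbonate apatite, and ODNcap-F ate feed with the same kind of particle holding a CpG-oligodeoxynucleotide. No group was fed particles without OVA, so feeding was compared among challenged mice only. Row 1 of the slide carried NT and Ctrl-F and row 2 carried Cap-F and ODNcap-F, so slide row and group cannot be told apart when groups from different rows are compared. Values are log2 signals, quantile normalized over the 8 arrays, and a call means a limma p, adjusted by Benjamini-Hochberg over all probes tested, under 0.05 together with a change of over 2-fold.

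P450 enzymes are heme proteins that insert 1 oxygen atom into a substrate, with electrons passed on by the reductase Por in the endoplasmic reticulum or by the ferredoxin Fdx1 in mitochondria. Families with low numbers mostly handle foreign chemicals, while others make or break down steroids, sterols, bile acids, retinoic acid, vitamin D and fatty acid mediators. In mouse lung the club cell of the conducting airway is known for its P450 content, and its Cyp2f2 turns naphthalene into a toxic epoxide.

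Upstream sequences of 5 members are shown first because relatives among them differed from NT with opposite signs in the challenged mice. Cyp2b13 was not above background in NT and passed the filter only through the challenged groups. Its sign therefore gives no support for a rise. The windows are the 250 bases before the gene start from RefSeq (GRCm38.p6), written 5′ to 3′ on the strand of the gene, and were picked after the values had been seen. Cyp2b13 and Cyp2b9 lie in the same run of genes on chromosome 7, with the pseudogene Cyp2b26-ps between them. Their windows were identical at 248 of 250 bases (99.2%), and capitals mark the 2 positions that differ.
Cyp2b13 (chr7:26061245-26061494, plus strand): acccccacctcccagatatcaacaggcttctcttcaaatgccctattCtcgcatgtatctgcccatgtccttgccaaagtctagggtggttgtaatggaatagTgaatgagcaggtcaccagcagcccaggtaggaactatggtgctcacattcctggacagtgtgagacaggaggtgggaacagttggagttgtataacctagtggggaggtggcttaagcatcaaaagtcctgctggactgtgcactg
Cyp2b9 (chr7:26173159-26173408, plus strand): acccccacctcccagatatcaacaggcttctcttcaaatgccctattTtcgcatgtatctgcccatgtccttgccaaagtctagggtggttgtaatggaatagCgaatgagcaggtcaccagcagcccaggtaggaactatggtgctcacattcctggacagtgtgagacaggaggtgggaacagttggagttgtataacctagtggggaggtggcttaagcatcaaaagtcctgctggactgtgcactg
Cyp2b10 belongs to that run too, and its window aligned to either of the others with 71.0% identity over 262 columns. Cyp1a1 and Cyp1b1 are textbook targets of the aryl hydrocarbon receptor. In the next 3 windows, capitals mark the receptor's core motif GCGTG, read on both strands.
Cyp2b10 (chr7:25897408-25897657, plus strand): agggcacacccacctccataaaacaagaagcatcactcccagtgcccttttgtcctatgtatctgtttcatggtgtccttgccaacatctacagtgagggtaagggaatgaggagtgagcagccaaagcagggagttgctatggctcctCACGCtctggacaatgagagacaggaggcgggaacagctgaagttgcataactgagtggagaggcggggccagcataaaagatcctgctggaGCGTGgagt
Cyp1a1 (chr9:57697363-57697612, plus strand): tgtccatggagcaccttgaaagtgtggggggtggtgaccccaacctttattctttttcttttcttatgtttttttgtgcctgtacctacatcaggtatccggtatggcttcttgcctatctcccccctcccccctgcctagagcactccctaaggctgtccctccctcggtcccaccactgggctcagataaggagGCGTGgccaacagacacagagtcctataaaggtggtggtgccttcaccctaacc
Cyp1b1 (chr17:79715062-79715311, minus strand): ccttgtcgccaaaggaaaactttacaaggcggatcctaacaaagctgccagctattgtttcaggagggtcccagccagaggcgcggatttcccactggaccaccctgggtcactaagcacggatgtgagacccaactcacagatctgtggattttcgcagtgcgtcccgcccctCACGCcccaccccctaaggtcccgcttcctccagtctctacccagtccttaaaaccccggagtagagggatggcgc
Of the 48 members, 38 had a window in the table. GCGTG was in 11 of the 38 (28.9%), against 28.2% of all 32851 windows. The forkhead motif TGTTTAC was in 2 of 38 (5.26%), against 3.17%, and the STAT6 motif TTCNNNNGAA in 0 of 38, against 5.85%. Among members called lower in Ctrl-F than in NT, 3 of 17 windows held GCGTG, and among those called higher 1 of 3. A match describes these letters only. The share of windows with GCGTG among the members was near that of all windows.

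Most P450 genes of lung that changed after OVA were lower, and a small group was higher. In Ctrl-F, 22 of the 48 members fell below NT and 4 rose above it. For Cap-F these counts were 21 and 4, for ODNcap-F 18 and 4. Of all named genes tested, 12% were called lower and 11.3% higher in Ctrl-F, 10.2% and 10.7% in Cap-F, and 10.1% and 10.9% in ODNcap-F. These 3 comparisons share the NT mice. For members that passed the filter through NT alone, such as Cyp2c23 and Cyp3a13, the filter itself favored a fall. It did not force a call, and Cyp3a11 and Cyp2d40, which passed in the same way, were not called. For Cyp2b13, which was not above background in NT, the filter favored a rise. The 38 members well above background on all arrays were therefore also counted. Of these, 16 (42.1%) fell with Ctrl-F, 15 (39.5%) with Cap-F and 13 (34.2%) with ODNcap-F, against 10.8%, 9.06% and 9.03% of all named genes measured equally well. In each comparison 3 of the 38 (7.89%) rose, against 9.89%, 9.27% and 9.35%. The median log2 fold change of the 38 was -0.60, -0.64 and -0.55 in the same order, and that of all such named genes was -0.09, -0.09 and -0.08. With 2 mice per group, an exact two-sided permutation test of a single gene cannot give a p below 0.333, and p-values here measure the spread between these mice.

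**Figure D1:**
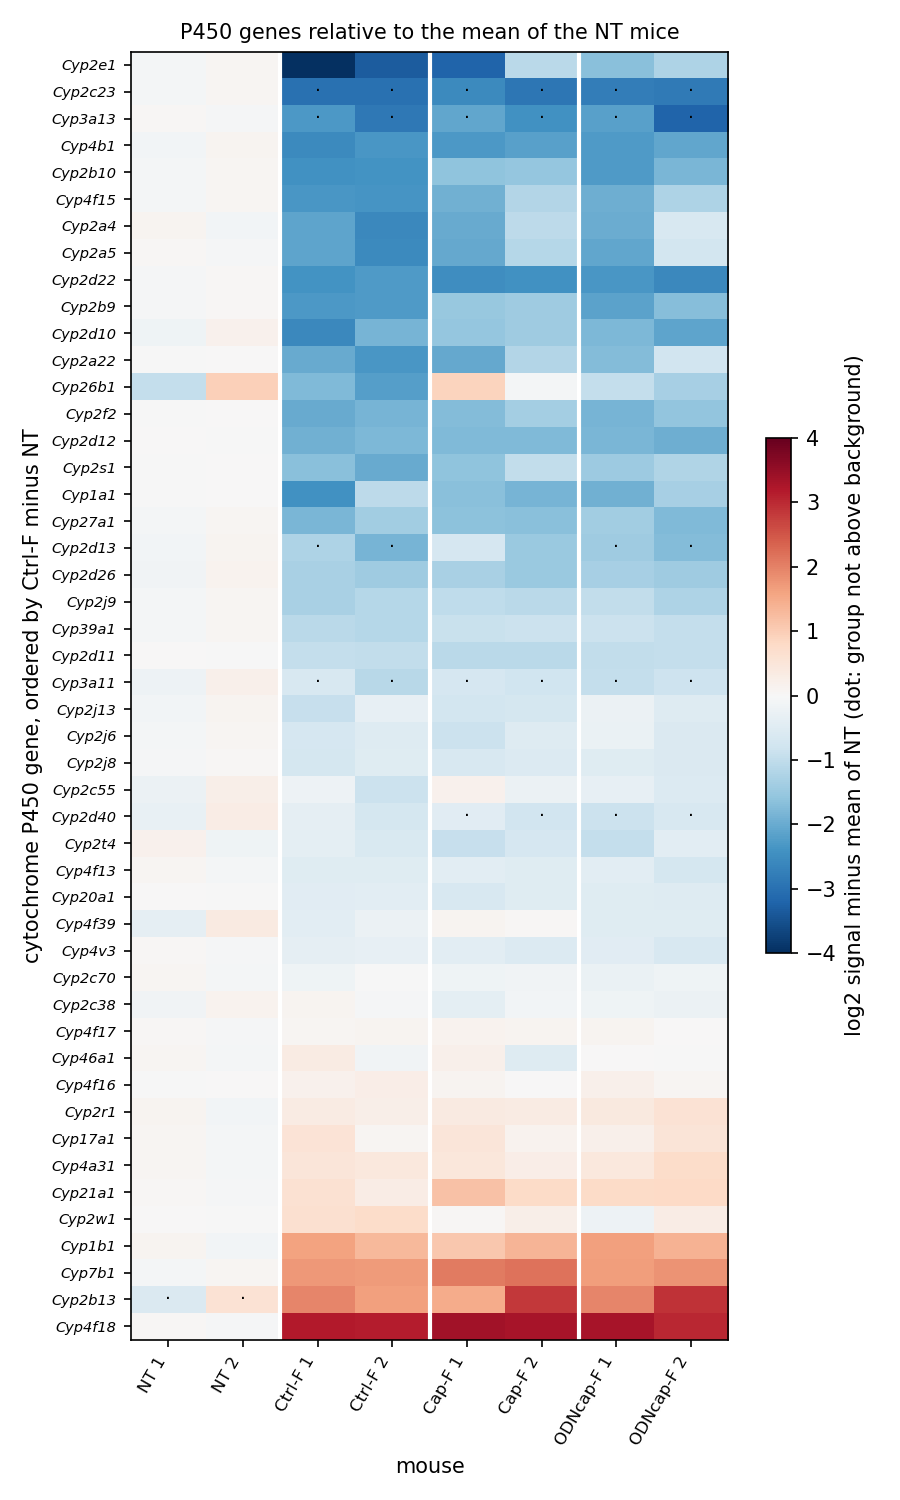
Log2 signal of the 48 P450 genes (rows) in each of the 8 mice (columns) minus the mean of the 2 NT mice, ordered by the difference between Ctrl-F and NT. Blue is lower and red higher than NT, and a dot marks a group with no array well above background. Most of the genes lowest in Ctrl-F were blue in all 6 challenged mice, and Cyp26b1 was not.

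The best known P450 genes of the airway fell. Cyp2f2, the club cell enzyme named above, read 16.68 and 16.73 in NT, against 14.70 and 14.83 (Ctrl-F), 14.98 and 15.36 (Cap-F) and 14.84 and 15.14 (ODNcap-F). All 6 challenged mice lay below both NT mice. Cyp2f2 fell by 1.95 ± 0.16 (SE) on the log2 scale in Ctrl-F (3.85-fold, adjusted p = 2e-04 in limma), 2.90-fold in Cap-F (adjusted p = 0.000545) and 3.28-fold in ODNcap-F (adjusted p = 0.000348). Cyp4b1, which hydroxylates fatty acids and activates the lung toxin ipomeanol, read 14.47 and 14.71 in NT, against 12.05 and 12.25 (Ctrl-F), 12.28 and 12.42 (Cap-F) and 12.31 and 12.50 (ODNcap-F). Its values in the challenged mice also lay apart from NT, and it was 5.42-fold lower in Ctrl-F (adjusted p = 4.96e-05). Cyp2s1, an epithelial P450, read 14.34 and 14.39 in NT, against 12.69 and 12.36 (Ctrl-F), 12.75 and 13.39 (Cap-F) and 12.91 and 13.16 (ODNcap-F). The groups again did not overlap with NT, and Cyp2s1 fell 3.60-fold in Ctrl-F (adjusted p = 0.000952), 2.46-fold in Cap-F (adjusted p = 0.00437) and 2.51-fold in ODNcap-F (adjusted p = 0.00372). Without Cap-F mouse 1 the Cap-F difference of Cyp2s1 was -0.98, under 2-fold.

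The markers of club cells were also lower in sum. The signal summed over the 10 club cell markers, all measured, lay at 19.26 and 19.37 on the log2 scale in NT, 18.46 to 18.48 in Ctrl-F, 18.63 to 18.87 in Cap-F and 18.60 to 18.79 in ODNcap-F. None of the P450 genes is in that list. In Ctrl-F 5 of the 10 were called lower and 0 higher, in Cap-F 4 and 0, and in ODNcap-F 4 and 1. The secretoglobin Scgb3a2 (-4.12) and the paraoxonase Pon1 (-5.58) fell in Ctrl-F, while Scgb3a1 was at 1.65 there (adjusted p = 0.148) and was called higher in ODNcap-F (2.54, adjusted p = 0.0467). Scgb1a1, the defining club cell marker, was between 17.52 and 17.64 in all 8 mice and was not called in Ctrl-F (-0.08 ± 0.06, adjusted p = 0.311), and quantile normalization gave several mice the same value at this signal. In bulk lung, fewer cells of a type and less RNA per cell cannot be told apart. Goblet cell markers, 6 of 6 called higher in each challenged group, summed to 10.84 and 11.68 in NT and to 16.89 to 17.66 in the challenged mice. The 7 alveolar type 1 markers summed to 18.20 and 18.27 in NT and to between 17.02 and 17.27 in the challenged mice, with 5 of 7 called lower in each group, and the 8 endothelial markers to 17.01 and 17.08 and to between 15.73 and 16.06, with 6 of 8 called lower. Of the alveolar type 2, ciliated and smooth muscle markers, 0 of 7, 0 of 8 and 0 of 6 were called, and of 7 fibroblast markers 5 fell in Ctrl-F. The part of these shifts in the P450 values was not tested.

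**Figure D2:**
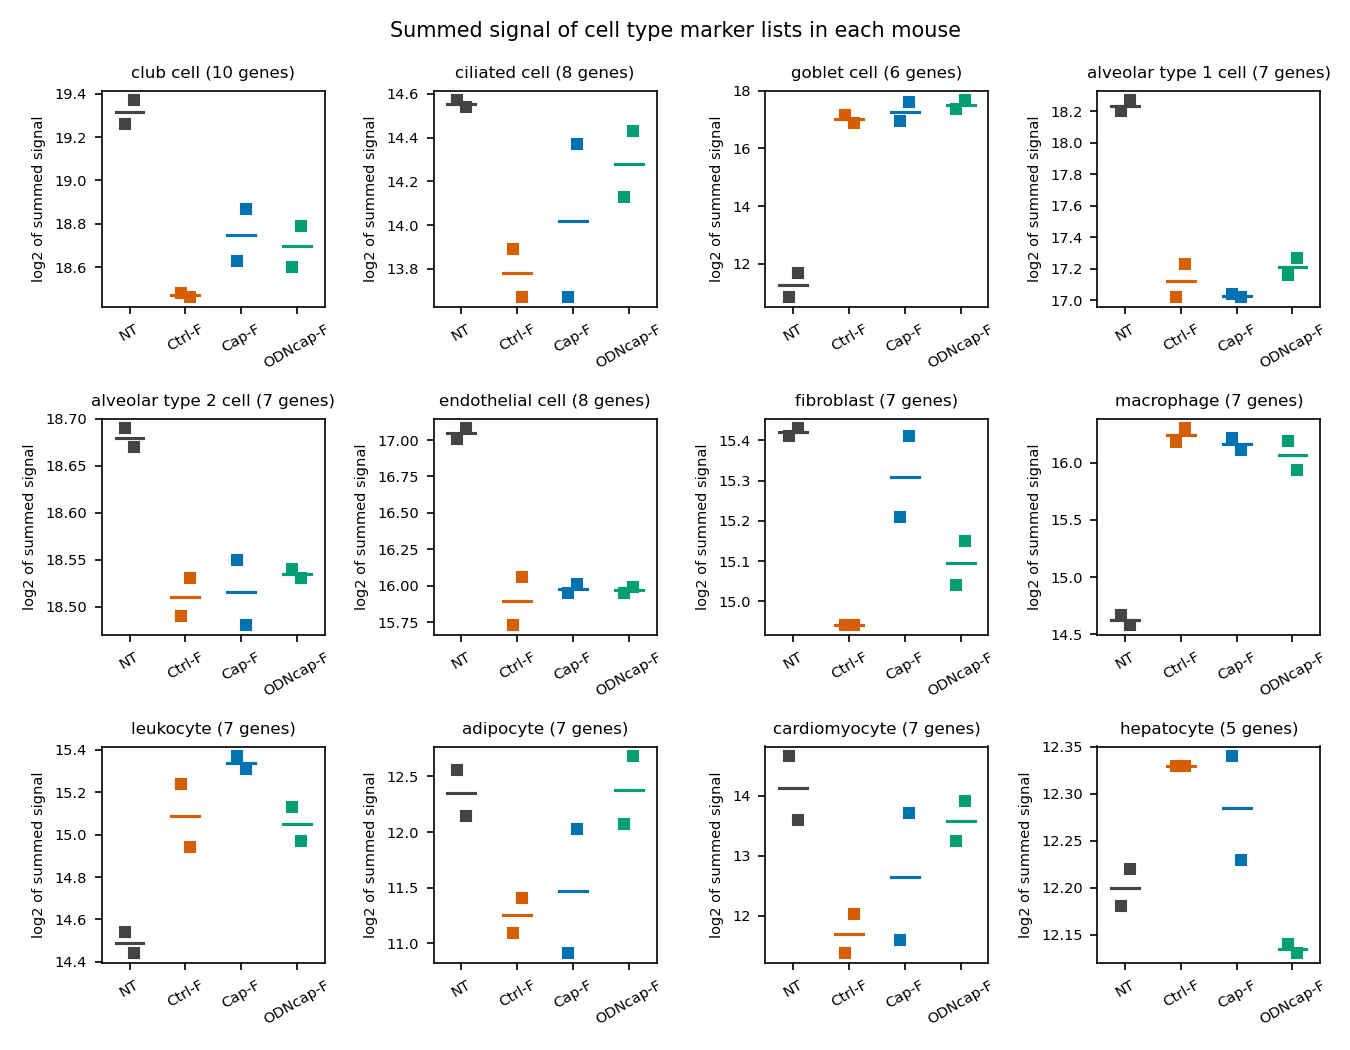
Log2 of the summed signal of 12 marker lists in each mouse (squares) with the mean of each group (line), vertical scales differing between panels. Club, ciliated, alveolar type 1, alveolar type 2 and endothelial sums were lower in all 6 challenged mice than in NT. Goblet, macrophage and leukocyte sums were higher in all 6. Adipocyte and cardiomyocyte sums differed between the 2 mice of Cap-F.

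Family 2, the largest, held 27 of the members and most of those that fell. In Ctrl-F 15 of the 27 fell and 1 rose, in Cap-F 16 and 1, and in ODNcap-F 13 and 1. These counts include Cyp2c23 and Cyp2d13, which passed the filter through NT alone. The 1 higher in each was Cyp2b13, which passed the filter only through the challenged groups. Of all named genes, 12%, 10.2% and 10.1% were called lower in these groups. Cyp2b10, induced by the receptor CAR in liver, read 15.67 and 15.84 in NT, against 13.32 and 13.36 (Ctrl-F), 14.16 and 14.22 (Cap-F) and 13.50 and 13.93 (ODNcap-F). It was 5.32-fold lower than NT in Ctrl-F (adjusted p = 7.97e-05), 2.95-fold in Cap-F and 4.11-fold in ODNcap-F, and its other probe fell by 2.28 in Ctrl-F (adjusted p = 0.000167). Cyp2b9 read 14.50 and 14.62 in NT, against 12.26 and 12.28 (Ctrl-F), 13.04 and 13.14 (Cap-F) and 12.43 and 12.86 (ODNcap-F), 4.90-fold lower in Ctrl-F (adjusted p = 8.45e-05).

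Cyp2b13, with the upstream window almost the same as that of Cyp2b9, had the opposite sign. It was not well above background in either NT mouse (2.71 and 3.85) and read 5.23 and 4.92 in Ctrl-F, 4.76 and 6.10 in Cap-F, and 5.23 and 6.18 in ODNcap-F. Every challenged mouse was above both NT mice. Cyp2b13 was at least 2.52-fold higher in Ctrl-F (adjusted p = 0.0386), at least 3.22-fold in Cap-F (adjusted p = 0.0228) and at least 3.90-fold in ODNcap-F (adjusted p = 0.0139). The bound sets each NT array at its lowest signal well above background, or at the probe's own signal where that is higher. The p-values belong to the differences as measured, not to the bounds. Cyp2b13 passed the filter only through the groups where it was high, so they give no support for a rise. Without NT mouse 1 all 3 calls were lost, and the differences were then 1.23, 1.58 and 1.86. Near relatives such as Cyp2b9 and Cyp2b10, or the Cyp2a genes, can share signal on a probe, and probe sequences were not used here.

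Along chromosome 7, 9 members lie in 1 run of 17 Cyp genes, in the order Cyp2s1, Cyp2b10, Cyp2b13, Cyp2b9, Cyp2a4, Cyp2a5, Cyp2a22, Cyp2f2 and Cyp2t4. In Ctrl-F 7 of the 9 fell, 1 (Cyp2b13, which passed the filter only through the challenged groups) rose and 1 (Cyp2t4) was not called. On chromosome 15, 5 of the 7 members among 18 Cyp genes from Cyp2d22 to Cyp2d26 fell and 0 rose. One of the 5, Cyp2d13, passed the filter through NT alone. Over all members 22 of 48 fell in Ctrl-F, and of all named genes 12% were called lower. Cyp2d22 read 8.70 and 8.82 in NT, against 6.38 and 6.50 (Ctrl-F), 6.27 and 6.35 (Cap-F) and 6.42 and 6.19 (ODNcap-F). It was 5.0-fold lower in Ctrl-F (adjusted p = 3.07e-05), 5.48-fold in Cap-F and 5.49-fold in ODNcap-F. Cyp2d12 was 3.61-fold lower in Ctrl-F (adjusted p = 2.58e-05), 3.39-fold in Cap-F and 3.72-fold in ODNcap-F. Cyp2d10 was 4.68-fold lower in Ctrl-F (adjusted p = 0.000709), where 1 of the 2 arrays was above background. For Cyp2d26 the 2 probes gave opposite signs: the brighter fell by 1.36 in Ctrl-F (adjusted p = 0.000353), while the dimmer, above background on 6 arrays, was at 0.68 ± 0.26 (adjusted p = 0.0618). Close Cyp2d relatives may share probe signal too.

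The Cyp2a genes, whose Cyp2a5 oxidizes coumarin and nicotine, fell in Ctrl-F but were uneven between mice on particle feeds. Cyp2a5 read 13.41 and 13.32 in NT, against 11.24 and 10.83 (Ctrl-F), 11.31 and 12.21 (Cap-F) and 11.28 and 12.64 (ODNcap-F). The 6 challenged mice stayed below NT, with the second mouse of Cap-F and of ODNcap-F nearest to it. Cyp2a5 was 5.03-fold lower in Ctrl-F (adjusted p = 0.00792) and 3.04-fold in Cap-F (adjusted p = 0.0337). In ODNcap-F it was 2.65-fold lower at an adjusted p of 0.0496, and without ODNcap-F mouse 1 the difference was -0.73 (adjusted p = 0.186). Without Cap-F mouse 1 the Cap-F difference was -1.15 (adjusted p = 0.152). Cyp2a4 was 5.05-fold lower in Ctrl-F (adjusted p = 0.0085), 2.88-fold in Cap-F (adjusted p = 0.0428) and -1.33 ± 0.50 on the log2 scale in ODNcap-F (adjusted p = 0.0627). Without Cap-F mouse 1 the Cap-F difference of Cyp2a4 was -1.04 (adjusted p = 0.188). Cyp2a22 fell by 2.16 in Ctrl-F (adjusted p = 0.00443), with weaker calls in Cap-F (adjusted p = 0.0154) and ODNcap-F (adjusted p = 0.0362), which was at -0.76 without ODNcap-F mouse 1 (adjusted p = 0.151). Leaving out either NT mouse also ended the Cap-F calls of Cyp2a5, Cyp2a4 and Cyp2a22 and the ODNcap-F calls of Cyp2a5 and Cyp2a22. The 8 ciliated cell markers summed to 13.67 and 14.37 (Cap-F) and to 14.13 and 14.43 (ODNcap-F), the second mouse being the higher in both. This order was not particular to ciliated cells. Club cell markers had it too, with 18.63 and 18.87 (Cap-F) and 18.60 and 18.79 (ODNcap-F). So had the goblet, fibroblast, endothelial, smooth muscle, adipocyte and cardiomyocyte sums, while the macrophage, leukocyte and alveolar type 2 sums had the reverse order. The part of these cells in the Cyp2a values was not tested.

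Cyp2e1, which oxidizes ethanol and small solvents, showed the largest fall of the members in Ctrl-F and the largest SE. It read 8.43 and 8.60 in NT, against 3.89 and 5.20 (Ctrl-F), 5.31 and 7.44 (Cap-F) and 6.85 and 7.28 (ODNcap-F). All challenged mice were below NT, and the Ctrl-F mice were below all others, 1 of them not well above background. Cyp2e1 fell by 3.97 ± 0.74 in Ctrl-F (adjusted p = 0.00481). Its other probe was well above background on 5 of the 8 arrays only. In Cap-F it fell by 2.14 ± 0.74 (adjusted p = 0.0493), a call lost on leaving out any mouse but Cap-F mouse 2, with -1.08 without Cap-F mouse 1 (adjusted p = 0.167). In ODNcap-F it was at -1.45 ± 0.74 (adjusted p = 0.139). The sum of the adipocyte markers, 7 of 8 measured, read 12.56 and 12.14 in NT, against 11.09 and 11.41 (Ctrl-F), 10.91 and 12.03 (Cap-F) and 12.07 and 12.68 (ODNcap-F). One of them, Cfd, read 11.14 and 10.71 in NT, against 5.17 and 8.27 (Ctrl-F), 7.38 and 10.56 (Cap-F) and 10.11 and 11.10 (ODNcap-F), so that within each challenged group the second mouse was the higher for both Cfd and Cyp2e1. Cfd was chosen after its values were seen, and the list was not uniform: 4 of the 7 were called lower and 1 higher in Ctrl-F, 2 and 1 in Cap-F, and 1 and 2 in ODNcap-F. Retn, one of the 7, was higher in each challenged group (1.05 in Ctrl-F, adjusted p = 0.00858), and Lipe did not share the mouse order in Cap-F (6.75 and 6.64) or ODNcap-F (6.93 and 6.77). The 7 cardiomyocyte markers had the same order, with sums of 11.37 and 12.02 for Ctrl-F, 11.59 and 13.71 for Cap-F and 13.24 and 13.91 for ODNcap-F, and of 14.66 and 13.60 for NT. Of 8 liver markers, Apoa1, Ttr and Fgb did not pass the filter, and the 5 measured summed to between 12.13 and 12.34 in all mice. Of these 5, 1 was called lower in each challenged group (albumin, Alb, above background on 3 arrays) and 1 higher (fetuin, Ahsg, 1.33 in Ctrl-F). The part of RNA from these other tissues in Cyp2e1 was not tested.

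Cyp2c23, a fatty acid epoxygenase best known from kidney, and Cyp3a13 were well above background in the NT mice only. They passed the filter through NT alone, so their p-values give no support for a fall. Those p-values belong to the differences as measured, not to the bounds. Cyp2c23 read 6.57 and 6.71 in NT and between 3.67 and 4.08 in the challenged mice, at least 6.17-fold lower in Ctrl-F (adjusted p = 2.33e-05), 6.01-fold in Cap-F and 5.73-fold in ODNcap-F. Cyp3a13 read 5.80 and 5.68 in NT and between 2.53 and 3.67 in the challenged mice, at least 3.30-fold lower in Ctrl-F (adjusted p = 0.0016), 3.21-fold in Cap-F and 3.06-fold in ODNcap-F. Of the other Cyp2c genes, Cyp2c38, Cyp2c55 and Cyp2c70 were not called in any comparison, and 11 more did not pass the filter. Of the 4 Cyp2j genes, Cyp2j9 fell in all 3 challenged groups (2.31-fold, 2.06-fold and 2.16-fold), though without NT mouse 2 it was at -0.97 in Cap-F and without ODNcap-F mouse 2 at -0.98 in ODNcap-F. Cyp2j6, an arachidonic acid epoxygenase, was at -0.61 ± 0.16 in Ctrl-F by its brighter probe (adjusted p = 0.0171, under 2-fold), and its dimmer probe was well above background on 2 arrays only.

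**Figure D3:**
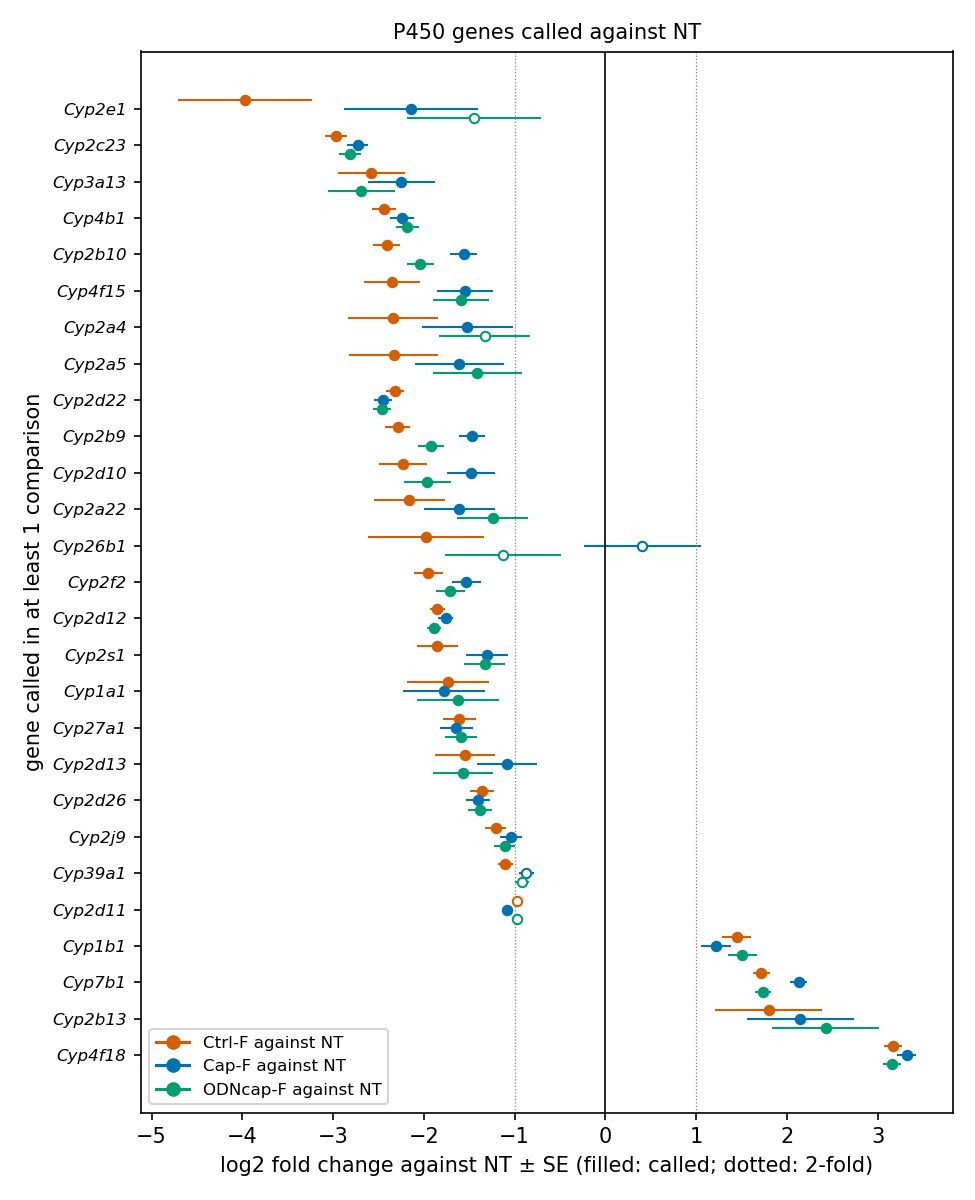
Log2 fold change against NT (horizontal axis, points) with its SE (bars) for each P450 gene called in at least 1 of the 3 comparisons with NT, filled where called. Cyp1b1, Cyp7b1, Cyp2b13 and Cyp4f18 lie to the right of 0, and Cyp2e1, Cyp26b1 and Cyp2b13 have the widest bars.

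The family 1 genes Cyp1a1 and Cyp1b1 moved in opposite directions, and both are known to be induced through the aryl hydrocarbon receptor. Cyp1a1 read 6.39 and 6.42 in NT, against 3.98 and 5.37 (Ctrl-F), 4.72 and 4.53 (Cap-F) and 4.48 and 5.09 (ODNcap-F). The challenged mice were all lower, with 1 of the 2 Ctrl-F arrays not well above background. Cyp1a1 was 3.31-fold lower in Ctrl-F (adjusted p = 0.0171), 3.43-fold in Cap-F (adjusted p = 0.017) and 3.08-fold in ODNcap-F (adjusted p = 0.0225). These calls were lost on leaving out either NT mouse, with differences in Cap-F of -1.79 and -1.77 and adjusted p-values of 0.0662 and 0.0695. Without ODNcap-F mouse 1 the ODNcap-F difference was -1.31 (adjusted p = 0.107), and the Cap-F call also needed both Cap-F mice. Cyp1b1, which also acts on steroids and retinoids, read 7.32 and 7.10 in NT, against 8.82 and 8.51 (Ctrl-F), 8.30 and 8.56 (Cap-F) and 8.85 and 8.59 (ODNcap-F). All challenged mice were higher, and Cyp1b1 rose 2.74-fold in Ctrl-F (adjusted p = 0.000648), 2.33-fold in Cap-F (adjusted p = 0.00147) and 2.85-fold in ODNcap-F (adjusted p = 0.000616). The Cap-F call of Cyp1b1 was under 2-fold with normexp background correction. The receptor gene Ahr itself was at -0.37 ± 0.12 in Ctrl-F (adjusted p = 0.0388, under 2-fold), 0.07 in Cap-F (adjusted p = 0.627) and -0.22 in ODNcap-F (adjusted p = 0.169). Of 10 measured xenobiotic receptors and regulators, 2, 1 and 2 were called lower in the 3 challenged groups, and 0 higher. The lipid sensor Ppara was among those called lower in each. For all named genes the shares were 12%, 10.2% and 10.1% lower, and 11.3%, 10.7% and 10.9% higher. Counts this small in 10 genes lie near these shares.

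Cyp4f18 rose more than any other member. This enzyme, known for inactivating leukotriene B4 in mouse neutrophils, read 10.18 and 10.11 in NT, against 13.33 and 13.30 (Ctrl-F), 13.49 and 13.44 (Cap-F) and 13.44 and 13.16 (ODNcap-F). The challenged mice lay in a narrow band far from NT. Cyp4f18 rose by 3.17 ± 0.10 in Ctrl-F (9.01-fold, adjusted p = 1.14e-05), by 3.32 in Cap-F (adjusted p = 1.15e-05) and by 3.16 in ODNcap-F (adjusted p = 1.21e-05), and its other probe gave 3.32, 3.35 and 3.12. Its relative Cyp4f15 fell 5.10-fold in Ctrl-F (adjusted p = 0.00121), 2.93-fold in Cap-F and 3.02-fold in ODNcap-F, while Cyp4f13, Cyp4f16, Cyp4f17 and Cyp4f39 were not called. Leukocyte and macrophage markers were higher in sum beside Cyp4f18. The 7 measured leukocyte markers summed to 14.44 and 14.54 in NT and to 14.94 to 15.37 in the challenged mice, with 3 called higher in Ctrl-F, and the 7 macrophage markers to 14.58 and 14.67 and to 15.94 to 16.30, with 4 higher and 1 lower. The neutrophil marker Ly6g did not pass the filter, and the part of these cells in the value was not tested.

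Among the sterol genes, Cyp7b1, which hydroxylates oxysterols, rose in all challenged groups. It read 8.27 and 8.43 in NT, against 10.08 and 10.05 (Ctrl-F), 10.44 and 10.52 (Cap-F) and 10.02 and 10.15 (ODNcap-F). No challenged mouse overlapped with NT, and the Cap-F mice were the highest. Cyp7b1 rose 3.29-fold in Ctrl-F (adjusted p = 4.42e-05), 4.38-fold in Cap-F (adjusted p = 2.58e-05) and 3.34-fold in ODNcap-F (adjusted p = 4.78e-05), with 1.18, 1.49 and 1.18 on the log2 scale by its other probe. Of 10 genes of the oxysterol pathway, 3 were higher in each challenged group and 0 lower. Among all named genes, 11.3% (Ctrl-F), 10.7% (Cap-F) and 10.9% (ODNcap-F) were called higher, and 12%, 10.2% and 10.1% lower. Ch25h, which makes the substrate of Cyp7b1, read 8.80 and 8.84 in NT and between 12.51 and 12.99 in the challenged mice, and rose by 3.98 ± 0.17 in Ctrl-F (adjusted p = 2.69e-05). Gpr183, the receptor for the product, rose by 1.85 ± 0.19 (adjusted p = 0.000492), while Hsd3b7, which degrades the ligand, was at -0.04 ± 0.08 (adjusted p = 0.688). Cyp27a1, a mitochondrial sterol hydroxylase, read 7.36 and 7.49 in NT, against 5.60 and 6.03 (Ctrl-F), 5.80 and 5.76 (Cap-F) and 6.02 and 5.66 (ODNcap-F), and fell 3.05-fold, 3.13-fold and 3.0-fold (adjusted p = 0.000616, 0.000666 and 0.000714). With normexp background correction it was under 2-fold in all 3. Cyp39a1, another oxysterol hydroxylase, fell 2.15-fold in Ctrl-F (adjusted p = 0.000139) and was under 2-fold in Cap-F (-0.87) and ODNcap-F (-0.92).

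Cyp26b1, which breaks down retinoic acid, varied most within NT. It read 10.13 and 12.02 in NT, against 9.30 and 8.88 (Ctrl-F), 11.96 and 11.01 (Cap-F) and 10.13 and 9.75 (ODNcap-F). The NT mice differed by 1.89, and the Cap-F mice lay within their range. Cyp26b1 fell by 1.98 ± 0.64 in Ctrl-F (adjusted p = 0.0362), and without NT mouse 2 the difference was -1.04 (adjusted p = 0.107). It was not called in Cap-F (0.41 ± 0.64, adjusted p = 0.605) or ODNcap-F (-1.13 ± 0.64, adjusted p = 0.172). Of 14 measured retinoid genes, 4 were lower and 2 higher in each challenged group. Among all named genes, 12% (Ctrl-F), 10.2% (Cap-F) and 10.1% (ODNcap-F) were called lower, and 11.3%, 10.7% and 10.9% higher. The retinoic acid synthesis gene Aldh1a3 rose by 2.97 and Aldh1a1, also a club cell marker here, fell by 1.94 in Ctrl-F.

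Most P450 genes of steroid hormone synthesis did not pass the filter. Of 6 such genes, Cyp17a1 and Cyp21a1 passed it, both well above background on all 8 arrays, and neither was called. Cyp21a1 was at 0.46 (Ctrl-F), 0.97 (Cap-F) and 0.78 (ODNcap-F) against NT. Cyp11a1 and Cyp19a1 did not pass, nor did the vitamin D genes Cyp24a1 and Cyp27b1, the liver bile acid gene Cyp7a1 or Cyp1a2. Of the 3 genes of families 24 and 27 with a probe, Cyp27a1 alone passed, with the values given above. Cyp20a1, without a settled substrate, was at -0.45 to -0.57 in the 3 comparisons with adjusted p-values of 0.00135 to 0.00292, under the 2-fold limit.

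**Figure D4:**
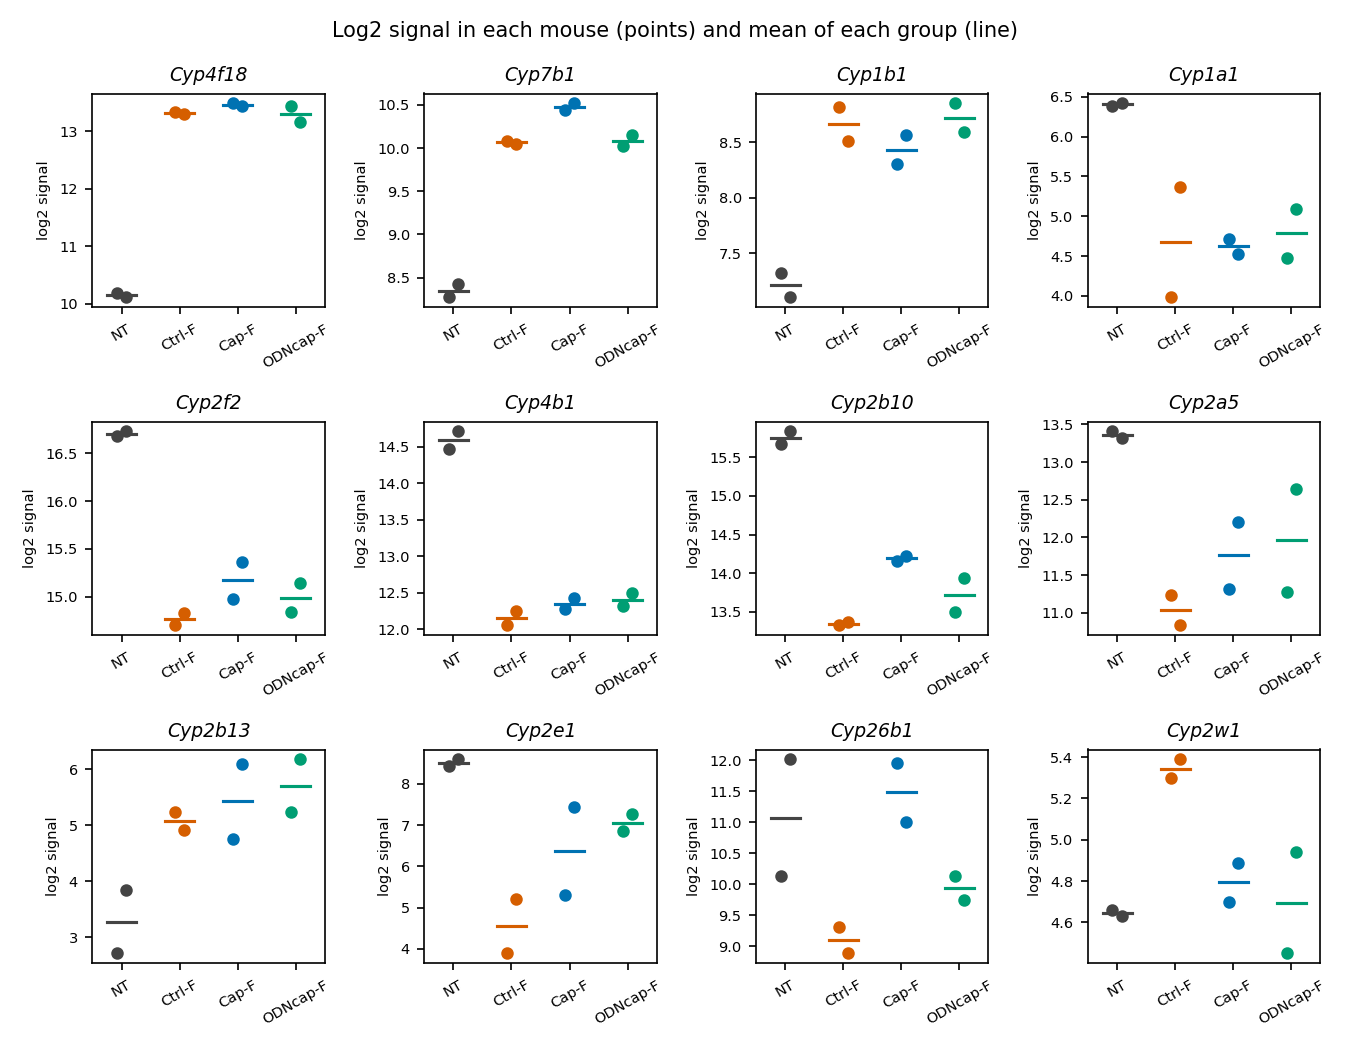
Log2 signal in each mouse (points) and group mean (line) for 12 P450 genes, each with its own vertical scale. Cyp4f18, Cyp7b1, Cyp1b1 and Cyp2b13 are higher in all 6 challenged mice than in NT and Cyp1a1, Cyp2f2, Cyp4b1, Cyp2b10, Cyp2a5 and Cyp2e1 lower, while NT and challenged mice overlap for Cyp26b1 and Cyp2w1.

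P450 genes whose symbols fall outside the naming rule also went both ways. Of 4 measured, Tbxas1, the thromboxane synthase, rose by 2.49 in Ctrl-F (adjusted p = 8.24e-05) and Cyp51 of cholesterol synthesis by 1.18 (adjusted p = 0.000879). Ptgis, the prostacyclin synthase, fell by 1.51 (adjusted p = 6.12e-05). Cyp4a12b, above background in the NT mice only, was called lower. It passed the filter through NT alone, so its call gives no support for a fall. Of 8 electron donors and partners of P450 enzymes, 2, 1 and 1 were called lower in the 3 challenged groups, and 0 higher. For all named genes the shares were 12%, 10.2% and 10.1% lower, and 11.3%, 10.7% and 10.9% higher. Counts this small in 8 genes lie near these shares. The reductase Por read 14.48 and 14.43 in NT, against 13.35 and 13.37 (Ctrl-F), 13.48 and 13.64 (Cap-F) and 13.52 and 13.61 (ODNcap-F), and fell by 1.1 ± 0.08 in Ctrl-F (adjusted p = 0.000146). In Cap-F and ODNcap-F it was at -0.90 and -0.89, under 2-fold. Of 7 measured flavin monooxygenases and epoxide hydrolases, 5, 4 and 5 fell in the 3 challenged groups, and 0 rose. Of 20 glutathione, sulfate and glucuronide transferases, 12, 9 and 10 fell, and 0, 0 and 1 rose.

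Between the challenged groups no P450 gene was called. The share of all named genes called was 0% for ODNcap-F against Ctrl-F, 0% for ODNcap-F against Cap-F and 0% for Cap-F against Ctrl-F. At an unadjusted p under 0.05, limma gave 4, 3 and 11 of the 48 members (8.33%, 6.25% and 22.9%), against 5.8%, 11.7% and 15.3% of all named genes. The local-pooled-error test, rebuilt here as the test of the study's methods, called 2 (Cyp2a4 and Cyp2e1), 1 (Cyp26b1) and 2 (Cyp26b1 and Cyp2e1). Cyp26b1 stood at 2.40 ± 0.64 in Cap-F against Ctrl-F (adjusted p = 0.194 in limma) and at -1.55 ± 0.64 in ODNcap-F against Cap-F (adjusted p = 0.388). The 95% interval of the difference lay within 2-fold either way for 37, 36 and 33 of the 48 members, and for the rest it reached past 2-fold. With ODNcap-F set against Ctrl-F, Cyp2e1 differed by 2.52 (95% interval 0.71 to 4.33, adjusted p = 0.728). Cyp2w1, whose values between 4.45 and 5.39 lie near background, was at -0.65 in ODNcap-F (-1.05 to -0.24, adjusted p = 0.67) and -0.55 in Cap-F (adjusted p = 0.222), both against Ctrl-F. Cyp2b10 stood at 0.85 in Cap-F against Ctrl-F (0.49 to 1.21, adjusted p = 0.135) and at -0.48 in ODNcap-F against Cap-F (-0.83 to -0.12, adjusted p = 0.305). Cyp7b1 stood at 0.41 (0.20 to 0.63, adjusted p = 0.165) and -0.39 (-0.60 to -0.18, adjusted p = 0.237) in these comparisons. For both genes the Cap-F mice lay above those of the other challenged groups without overlap, and Cap-F and Ctrl-F also differ in slide row. Within groups, 2 members differed by over 2-fold between the mice of NT (Cyp26b1 and Cyp2b13), 2 between those of Ctrl-F (Cyp1a1 and Cyp2e1), 2 of Cap-F (Cyp2b13 and Cyp2e1) and 3 of ODNcap-F (Cyp2a4, Cyp2a5 and Cyp3a13).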

How the data were processed

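Lung RNA of 8 mice, 2 per group, was hybridized to 1 single-color Agilent array each, all on 1 slide. The authors deposited scanner files of Agilent Feature Extraction 11.0 with the background-subtracted intensity of each spot, and a table of log2 values for 32312 probes after quantile normalization among those probes. Recomputed that way from the intensities, log2 values differed from the deposited ones by at most 0.125.

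Here, non-control spots (59305 per array) were used, 792 flagged spot values were set to missing, log2 intensities were averaged per probe, and the 8 arrays were quantile normalized together. A probe stayed if both mice of some group had it well above background (37116 of 56605). Between 61.3% and 65.0% of probes were above background per array, and no spot was saturated. Precision is limited by how few arrays there are. No member had a missing value. Symbols came from RefSeq (32994 probes matched). Groups were compared in 1 model of all arrays by limma 3.58.1 under R 4.3.3 (4 residual degrees of freedom), with 6 comparisons and Benjamini-Hochberg adjustment over all kept probes. The study's methods used the local-pooled-error test, run as an alternative. Scripts were tested on simulated data.

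Members named with values were those on a list of P450 genes known in lung, up to 10 called each way against NT, the 3 each way with the smallest unadjusted p between challenged groups, and any gene with a second probe of opposite sign at an adjusted p under 0.05. Other members given with values were chosen after the values were seen. The members and all lists were chosen with earlier results of these data known. Replicate numbers come from the labels, which do not tie them to litters or cages.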

Additional observations from a re-analysis of the deposited data

How the results depend on the processing

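Alternatives were scaling to the 75th percentile, normexp background correction with an offset of 50, the deposited log2 table, no filter, only probes above background on all arrays, an intensity trend, only the compared groups, each mouse left out, the mean of a gene's probes, no fold minimum, an unadjusted p, the replicate block and the local-pooled-error test. No named fold change that was called reversed. The number of members called in Cap-F against NT was 25, and 15 with normexp; in ODNcap-F against NT it was 22, and 34 without a fold minimum. Between challenged groups 0 were called, but an unadjusted p with the fold minimum gave 1 (ODNcap-F against Ctrl-F), 0 (ODNcap-F against Cap-F) and 2 (Cap-F against Ctrl-F), and the local-pooled-error test 2, 1 and 2. The cause was not tested, apart from the looser thresholds themselves.

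Of 67 calls of named members against NT, 28 were lost under at least 1 alternative, 21 with normexp and 16 when a mouse was left out. Normexp took all 3 calls of Cyp27a1, Cyp2d10, Cyp2j9, Cyp3a13, Cyp1a1 and Cyp2b13, and the Cap-F calls of Cyp1b1 and Cyp2d11 and the ODNcap-F call of Cyp2a22. Cyp2a5 in ODNcap-F was lost without either NT mouse, either Ctrl-F mouse or ODNcap-F mouse 1 (-2.09 to -0.73), Cyp2e1 in Cap-F without any mouse but Cap-F mouse 2 (-3.21 to -1.08), Cyp2b13 in Ctrl-F without NT mouse 1 or either Ctrl-F mouse (1.23 to 2.37), and Cyp26b1 in Ctrl-F without NT mouse 2, either Ctrl-F mouse or either ODNcap-F mouse (-2.93 to -1.04). Without the filter, when all 92 genes entered, the median log2 fold change against NT was -0.16 (Ctrl-F), -0.12 (Cap-F) and -0.20 (ODNcap-F), and with normexp it was -0.45, -0.45 and -0.50. For ODNcap-F it was -0.82, and -0.54 with the deposited table and -0.55 with probes above background on all arrays. With the replicate block, the 3 comparisons with NT called 25, 25 and 22 members, and among the named calls against NT the block ended only that of Cyp26b1 in Ctrl-F. The differences between mouse 2 and mouse 1 correlated between groups over probes at -0.01 to 0.16, so the numbers did not pair the mice.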
